A study of Mus musculus with 36 samples.

Results

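Transcripts of 5 cytokines, Ifng, Il12a, Il6, Il10 and Il22, were examined in ileal mucosa from mice with different gut colonisation. They are 5 of the 224 TaqMan assays of a custom OpenArray card, read by real-time PCR as Ct, the cycle number when a well's fluorescence passes a threshold; a lower Ct stands for more template. The members were chosen by catalogue ID: Mm99999071_m1 for Ifng, Mm00434169_m1 for Il12a, Mm00446190_m1 for Il6, Mm01288386_m1 for Il10 and Mm00444241_m1 for Il22. The deposited table lists IDs alone and 0 of its 224 IDs occur in the gene table used here, so the gene names are those given with the choice of assays and were not checked against a table.

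The 36 samples form 4 groups of 9. The control group was germfree. Another 2 groups were mono-associated, that is colonised with a single strain, either E. coli CEC, whose letters are not spelled out in the labels, or E. coli Nissle, which is used as a probiotic; their colonisation label reads 21 with no unit. The last group was conventional, with an ordinary complex microbiota. The sources used here do not give mouse strain, age or sex. The design text mentions pooling of RNA while the titles number the samples singly, so a sample may be a mouse or a pool and the p-values measure the spread between samples only. The identity of the mucosa and its immune cells was not checked against marker genes, because the other assays are not paired with genes. In such bulk samples fewer cytokine-producing cells and less RNA per cell cannot be told apart.

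Cytokines are secreted proteins that immune cells, and some epithelial and stromal cells, use to signal. In the gut wall they are made by scattered lymphocytes, innate lymphoid cells and myeloid cells, so their transcripts are usually scarce in whole mucosa. Ifng and Il12a belong to the type 1 axis: interleukin 12, of which Il12a encodes a subunit, drives T cells and natural killer cells to make interferon gamma, which activates macrophages. Il6 is a broadly acting inflammatory cytokine. Il10 restrains inflammation, and mice that lack it develop colitis when they carry microbes. Il22, of the same cytokine family as Il10, is made by lymphoid cells and acts on the epithelium, where it induces antimicrobial proteins.

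All 5 assays lay near the limit of detection, and none was measured in every sample of any group. Il12a and Il10 came closest, each measured in 8 of 9 conventional samples. A Ct under 40 was recorded in 87 of their 180 wells (48.3%), against 97.5% of those of the other 219 assays, and the 5 assays held 93 of the 291 undetermined wells in the table. Il10 was measured in 24 of 36 samples, Il12a in 23, Ifng in 17, Il6 in 12 and Il22 in 11. The measured Ct values ran from 26.2 (Ifng in germfree replicate 12) to 32.35 (Il10 in Nissle replicate 1), and that last value was also the highest Ct of the whole table. Of the 87 measured wells 79 had a Ct above 28, compared with 3.29% of the measured wells of the other assays. No well was recorded between that highest Ct and 40, so an undetermined well gives no level.

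**Figure D1:**
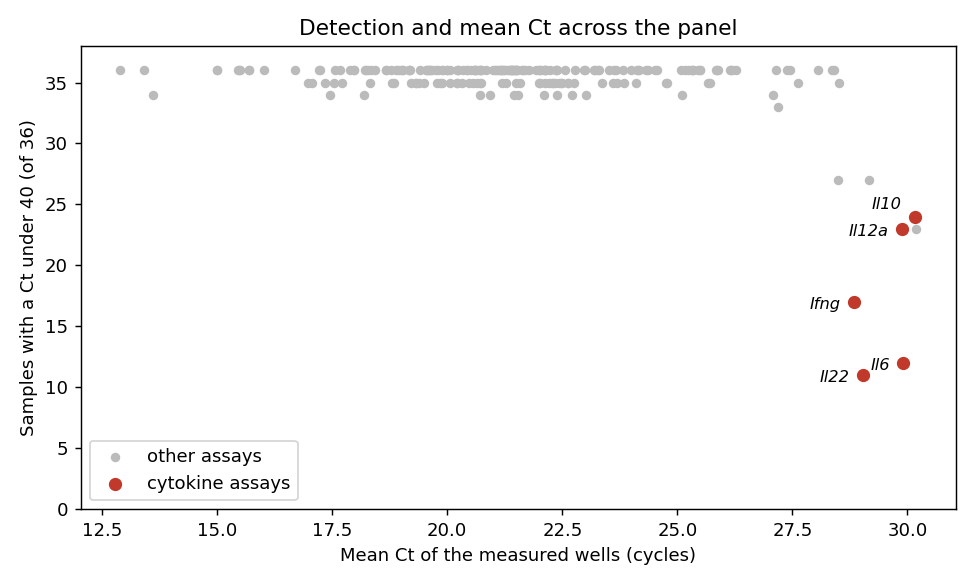
Number of samples with a Ct under 40 (of 36) against the mean Ct of the measured wells, in cycles, for each assay that amplified at least once. The cytokine assays (red) sit at the lower right, with mean Ct values from 28.8 to 30.2 and 11 to 24 samples measured.

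Some assays of like Ct were measured about as often as the cytokines and some more often. Of the other assays, 8 had a mean measured Ct of 28 or more, and they were measured in 23 to 36 samples. Assay Mm00449604_m1, with a mean Ct of 28.5, was measured in 35 samples, whereas Ifng, with a mean of 28.8, was measured in 17. Assays Mm01288989_m1 and Mm00447491_m1, with means of 29.9 and 30.2, were each measured in 23 samples, as was Il12a at 29.9, and Il10 at 30.2 was measured in 24. Il22 had a mean Ct of 29.0 and was measured in 11 samples. Means over measured wells leave out the samples without a value, so they overstate the level of the assays measured least often. Each sample had a single well per assay, and technical and biological spread cannot be told apart.

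The number of cytokines seen per sample was highest in conventional samples and had the same median in germfree, CEC and Nissle samples. Germfree samples showed 1 to 3 of the 5 (median 2), and only germfree replicate 32 reached 3. CEC samples showed 0 to 5 (median 2), with none in CEC replicate 10 and all 5 in CEC replicate 9. Nissle samples showed 1 to 4 (median 2). Conventional samples showed 1 to 5 (median 3), and conventional replicate 7 showed all 5. At least 3 cytokines were measured in 1 germfree, 4 CEC, 4 Nissle and 7 conventional samples. Counted as wells, 17 of 45 were measured for germfree, 21 for CEC, 20 for Nissle and 29 for conventional samples, or 37.8%, 46.7%, 44.4% and 64.4%. The groups overlapped, and no test was made of this count because the assays were chosen with earlier results known. The other 219 assays were measured in 98.1%, 97.2%, 96.1% and 98.6% of wells in the same order of groups, so the conventional group also had the most of these.

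**Figure D2:**
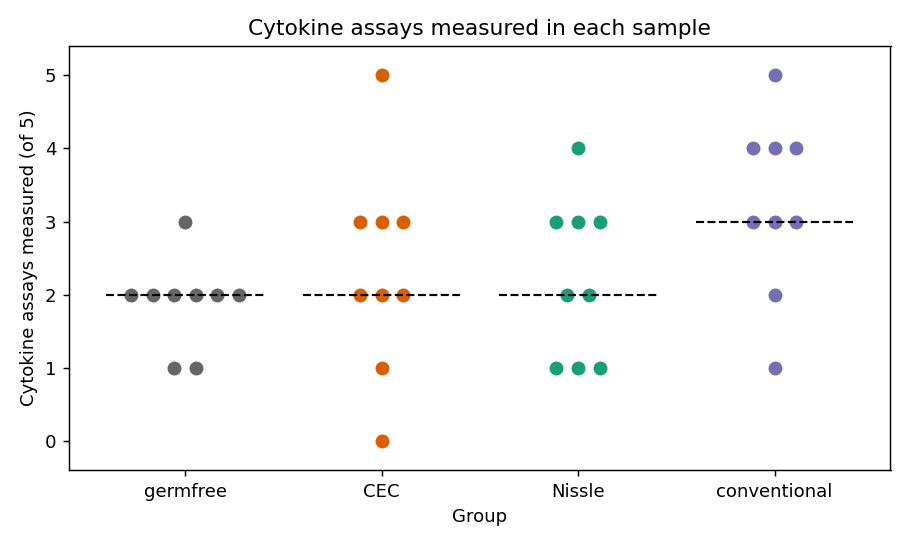
Number of the 5 cytokine assays with a Ct under 40 in each sample (points) by group, 9 samples per group; the dashed line is the group median. The median was 2 in germfree, CEC and Nissle samples and 3 in conventional samples, and the groups overlap.

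Some samples stood apart from the rest of the panel. All 5 cytokine assays lie within rows 90 to 109 of the table, in its first 112 rows. Over those 112 rows, Nissle replicate 6 lacked 44 of the other assays and CEC replicate 6 lacked 23, against 1 to 6 in the remaining samples. Within rows 90 to 109 themselves the other assays were measured in 34 to 36 samples, apart from late ones measured in 23 and 27. The count over 112 rows therefore does not describe the rows of the cytokines. Nissle replicate 6 nonetheless gave Ifng and Il6, and CEC replicate 6 gave Ifng, Il12a and Il10. Their part in the undetermined wells of the cytokines was not tested. CEC replicate 7 had the highest mean Ct, 21.8 against 21.0 to 21.6 elsewhere, over the 146 assays that gave a value throughout.

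Levels below are log2 relative levels, the sample's mean Ct over those 146 assays minus the Ct of the assay; a rise of 1 is a doubling if amplification is complete. Detection was compared by Fisher's exact test, two-sided, adjusted by Benjamini-Hochberg over all assays whose detection varied. The limma level test required 5 measured samples in every group, which 216 assays met but none of the 5 cytokines. Levels of measured wells were therefore tested with a filter of 3 samples in each compared group. An exact rank test, added after the values were seen, kept all samples by ranking undetermined wells together below every measured one; its two-sided p counts all assignments of the ranks and was adjusted over the 222 assays that amplified.

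Ifng was detected in 5 of 9 germfree, 3 CEC, 4 Nissle and 5 conventional samples. The germfree Ct values were 28.1 in replicate 10, 29.0 in replicate 11, 26.2 in replicate 12, 27.9 in replicate 20 and 28.2 in replicate 30. In CEC samples they were 30.5 in replicate 1, 30.1 in replicate 6 and 29.2 in replicate 9. All 3 measured CEC samples thus lay later than all 5 measured germfree samples, with replicate 12 the earliest of all 36 samples. Nissle samples gave 27.8 in replicate 1, 28.8 in replicate 5, 30.4 in replicate 6 and 28.2 in replicate 8, and conventional samples ran from 28.4 to 30.1 with a median of 28.9. Both of these groups overlapped the germfree range.

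On the relative scale the mean Ifng level was -6.52 ± 1.13 (SD, n = 5) for germfree, -8.95 ± 0.61 (n = 3) for CEC, -7.62 ± 1.12 (n = 4) for Nissle and -7.90 ± 0.83 (n = 5) in conventional samples. Among measured samples CEC minus germfree was -2.43 ± 0.67 (SE) log2 units, with a 95% confidence interval of -3.85 to -1.01 (limma, adjusted p = 0.0426), where 5.45% of 220 assays were called. That call rested on 8 samples and on the treatment of the 10 without a value. It was lost at a difference of -2.49 with median scaling (adjusted p = 0.0521) and of -2.43 both with the 2 groups fitted alone (0.0815) and with trend and robust variance (0.0586). It was also lost at -2.09 with raw Ct (0.0764), -1.81 with quantile normalization (0.143) and -1.55 with undetermined wells filled in (0.195). Left out 1 at a time, 33 samples allowed a fit and 20 of these fits kept the call, with adjusted p from 0.0163 to 0.0769 over all 33. The call was lost without CEC replicate 8 or 10, Nissle 5 or 8, germfree 10, 12, 20, 22, 30 or 31, or conventional 1, 2 or 7, and without CEC replicate 1, 6 or 9 too few values remained. The rank test over all 18 samples gave an adjusted p of 0.307. Conventional samples differed from germfree by -1.38 ± 0.58 (limma, adjusted p = 0.0984; 95% confidence interval -2.61 to -0.15). It passed with Nissle replicate 6 left out (-1.42, adjusted p = 0.0485) and with CEC replicate 7 left out as well (-1.42, 0.0345), neither of which belongs to these groups. Calls over the panel in that comparison numbered 56 of 220 assays with all samples, 60 without Nissle replicate 6 and 93 without both. For Nissle against germfree the difference was -1.10 ± 0.61 (limma, adjusted p = 0.300; 95% confidence interval -2.41 to 0.20).

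Il12a, which encodes the p35 subunit of interleukin 12, was detected in 6 germfree, 5 CEC, 4 Nissle and 8 conventional samples. The germfree Ct values ran from 29.4 in replicate 32 to 31.5 in replicate 11, with a median of 30.2. In CEC samples they were 31.4 in replicate 2, 29.0 in replicate 4, 28.1 in replicate 6, 28.1 in replicate 7 and 27.9 in replicate 9. In 4 of these 5 the Ct was earlier than in any germfree sample, and replicate 2 fell among the latest. Nissle samples gave 31.3 in replicate 4, 31.5 in replicate 7, 28.9 in replicate 8 and 31.3 in replicate 9, so replicate 8 stood apart from the other 3. Conventional samples were the most even, from 28.3 in replicate 4 to 30.2 in replicate 6 with a median of 29.9, and only conventional replicate 8 had no value.

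On that scale the mean Il12a level was -9.14 ± 0.82 (SD, n = 6) in germfree, -7.59 ± 1.44 (n = 5) for CEC, -9.47 ± 1.2 (n = 4) for Nissle and -8.38 ± 0.64 (n = 8) in conventional samples. CEC was 1.55 ± 0.58 (SE) above germfree among measured samples, which missed the threshold (limma, adjusted p = 0.0972; 95% confidence interval 0.35 to 2.74). It passed under quantile normalization (1.83, adjusted p = 0.0320; 28 of 220 assays called) and without CEC replicate 2, the late sample (2.16, adjusted p = 0.0110; 18 of 220 called). That replicate had the latest Il12a Ct of its group, and leaving out any other single sample did not give the call. Without CEC replicate 6 the difference was 1.38 (limma, adjusted p = 0.173), and without CEC replicate 9 it was 1.39 (0.186). Leaving out Nissle replicate 6 and CEC replicate 7 gave 1.16 (adjusted p = 0.144). Nissle was -1.88 ± 0.64 relative to CEC (limma, adjusted p = 0.363; 95% confidence interval -3.20 to -0.55), in a comparison where 0.452% of 221 assays were called. That difference also passed without CEC replicate 2 (-2.49, adjusted p = 0.0162; 2 of 220 assays called), and with no other single sample left out. Conventional samples were 0.77 ± 0.51 above germfree (limma, adjusted p = 0.315). The rank test gave an unadjusted p of 0.0329 and an adjusted p of 0.0830 for conventional against germfree. Detection in 8 of 9 conventional against 9 of 18 mono-associated samples was the widest gap from the single strains (38.9 percentage points, 95% confidence interval 0.305 to 61.8; Fisher's exact test p = 0.0912, adjusted p = 1).

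Il12a and Il10, the cytokines detected most often, were seen together in 16 samples, of which 7 were conventional, 5 CEC, 3 Nissle and 1 germfree. Ifng and Il12a were seen together in 13. Of the 17 samples with Ifng, 13 also had Il12a: all 5 germfree, 2 of 3 CEC, 1 of 4 Nissle and all 5 conventional. Of the 19 samples without Ifng, 10 had Il12a. In germfree samples Ifng and Il10 never occurred together, with 5 samples showing only Ifng, 3 only Il10 and 1 neither; in conventional samples 4 showed both. These counts describe the samples and were noticed in the data, so no test is given.

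**Figure D3:**
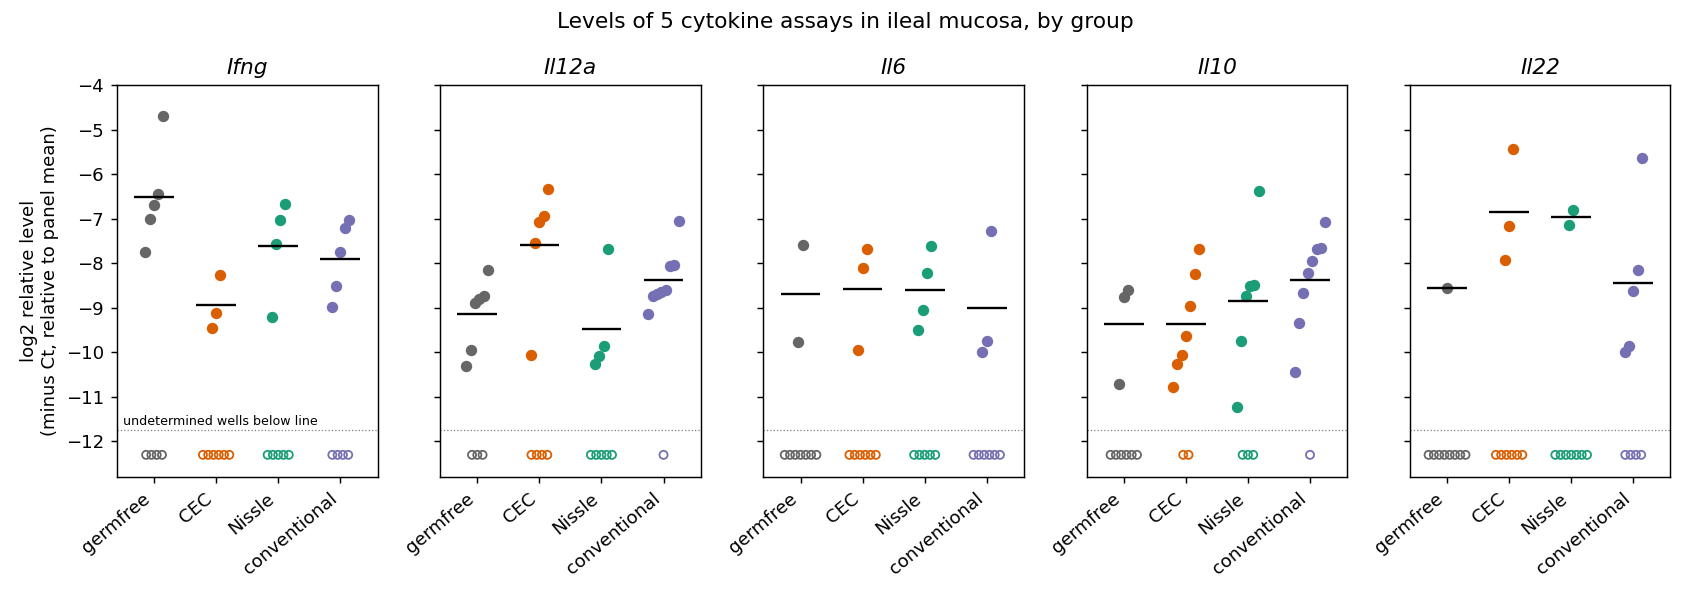
Log2 relative level of each cytokine in each sample (filled points) by group, with the mean of the measured samples as a black line; open circles below the dotted line are undetermined wells, which have no level. Among measured samples, Ifng in CEC (3 of 9 measured) lies below germfree (5 of 9 measured). The undetermined germfree wells are drawn lower still. Il10 has 6 open circles in germfree against 1 in conventional samples.

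Il6 was not called in any comparison. It was detected in 2 germfree, 3 CEC, 4 Nissle and 3 conventional samples. The Ct was 30.9 in germfree replicate 22 and 28.8 in germfree replicate 32. In CEC it was 31.3 in replicate 2, 29.5 in replicate 3 and 28.6 in replicate 9. In Nissle it was 28.9 in replicate 5, 30.7 in replicate 6, 30.2 in replicate 8 and 29.3 in replicate 9. In conventional samples it was 28.55 in replicate 4, 31.02 in replicate 6 and 30.9 in replicate 7. Every group held both early and late values, and the mean levels were -8.69 ± 1.54 (SD, n = 2) for germfree, -8.58 ± 1.21 (n = 3) for CEC, -8.60 ± 0.85 (n = 4) for Nissle and -9.00 ± 1.501 (n = 3) for conventional samples. With so few values the intervals were wide: Nissle differed from CEC by -0.02 (95% confidence interval -1.87 to 1.83; limma, adjusted p = 0.986). Conventional samples differed from the mono-associated mean by -0.41 (-2.09 to 1.26; adjusted p = 0.770).

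Il10 was higher in conventional than in germfree samples when undetermined wells were ranked lowest, and was not called on detection alone. It was detected in 3 germfree, 7 CEC, 6 Nissle and 8 conventional samples, that is in 33.3% (exact 95% interval 7.49 to 70.1), 77.8% (39.99 to 97.2), 66.7% (29.9 to 92.5) and 88.9% (51.8 to 99.7). The germfree Ct values were 29.8 in replicate 22, 31.9 in replicate 32 and 30.2 in replicate 33. Conventional samples gave 31.8 in replicate 1, 29.0 in replicate 3, 29.95 in replicate 4, 29.0 in replicate 6, 30.5 in replicate 7, 29.5 in replicate 8, 29.0 in replicate 9 and 28.2 in replicate 10. The 5 conventional samples in replicates 3, 6, 8, 9 and 10 had an earlier Ct than any germfree sample, while replicate 1 was among the latest. CEC samples ran from 28.7 to 31.8 with a median of 30.6, and Nissle samples from 27.6 to 32.4 with a median of 30.04.

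The rank difference between conventional and germfree was 6.56 mean ranks over 18 samples (exact rank test p = 0.00621, adjusted p = 0.0216). Il10 was the 1 cytokine of 5 called by this test in the comparison, which called 33.8% of 222 assays, so the share among the cytokines was no higher than in the panel. The call was kept with raw Ct (adjusted p = 0.0270), without any 1 of the 18 samples (adjusted p from 0.00609 to 0.0397) and with a Ct above 30 taken as undetermined (0.0463). With a Ct above 28 taken as undetermined the assay had no value in either group. By detection alone Il10 missed the threshold: the difference was 55.6 percentage points (95% confidence interval 10.6 to 78.7; Fisher's exact test p = 0.0498, adjusted p = 0.659 over 16 assays). Among measured samples the levels overlapped, at -8.38 ± 1.08 (SD, n = 8) in conventional and -9.36 ± 1.17 (n = 3) in germfree samples, a difference of 0.98 ± 0.81 (SE; limma, adjusted p = 0.416; 25.5% of 220 assays called). Filling the undetermined wells with each assay's latest Ct plus 1 cycle gave 2.31 (limma, adjusted p = 0.0269; 21.2% of 222 assays called), a value set in part by that filling.

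For the single strains the Il10 difference from germfree was not called. CEC exceeded germfree by 44.4 percentage points in detection (95% confidence interval -0.653 to 71; Fisher's exact test, adjusted p = 1) and by 3.89 mean ranks (exact rank test, adjusted p = 0.300; 3.6% of assays called). Nissle exceeded it by 33.3 percentage points (-10.9 to 63.4; adjusted p = 1) and 3.67 mean ranks (exact rank test, adjusted p = 0.343; 4.05% called). The mean level among measured samples was -9.37 ± 1.13 (SD, n = 7) in CEC and -8.85 ± 1.60 (n = 6) in Nissle samples. Conventional samples were not shown to differ from the mono-associated ones (5.75 mean ranks of 27; exact rank test, adjusted p = 0.175; 29.3% called). Over all colonised samples, pooled after the values were seen, Il10 was detected in 21 of 27 against 3 of 9 germfree samples (Fisher's exact test p = 0.0362, adjusted p = 1; 0% of 76 assays called).

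**Figure D4:**
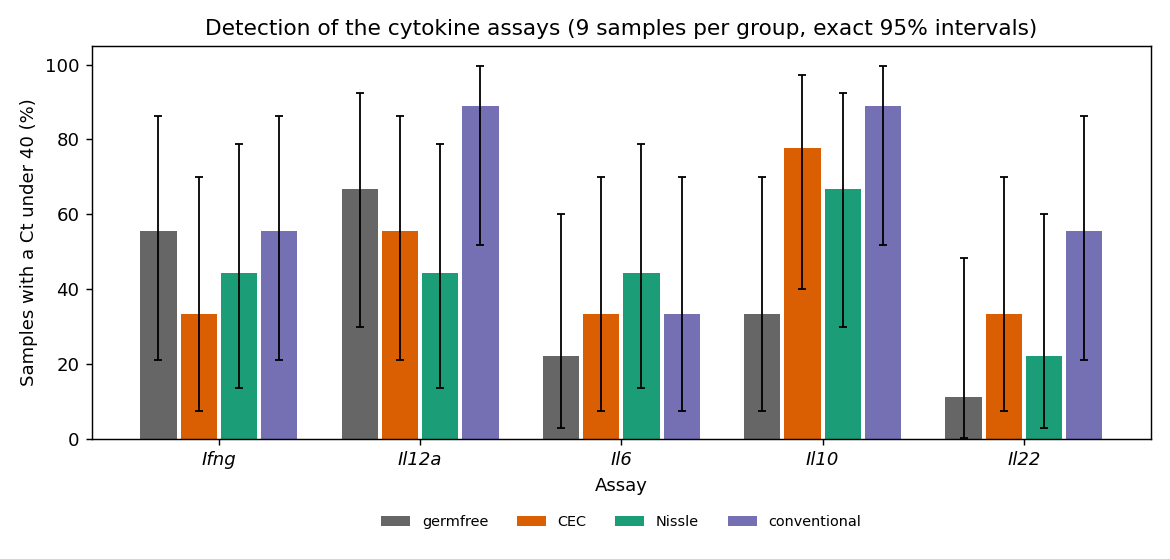
Percentage of the 9 samples per group with a Ct under 40 for each cytokine; error bars are exact 95% binomial intervals, which cover the sampling of 9 samples only. Il10 stands at 33.3% in germfree and 88.9% in conventional samples and Il22 at 11.1% and 55.6%, with overlapping intervals.

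Il22 was the least often detected cytokine. It was seen in 1 germfree, 3 CEC, 2 Nissle and 5 conventional samples. The germfree value was a Ct of 29.9 in replicate 31, the sample with no other cytokine of the 5. In CEC it was 26.8 in replicate 4, 29.2 in replicate 8 and 28.1 in replicate 9, and in Nissle 27.9 in replicate 1 and 28.7 in replicate 2. In conventional samples it was 29.95 in replicate 1, 26.9 in replicate 4, 31.02 in replicate 7, 29.5 in replicate 9 and 31.1 in replicate 10. The conventional group thus had the most samples with Il22 but also its 2 latest values, and the mean level was -8.45 ± 1.75 (SD, n = 5) there, -6.85 ± 1.28 (n = 3) in CEC and -6.97 ± 0.23 (n = 2) in Nissle samples. Conventional and germfree samples differed by 44.4 percentage points in detection (95% confidence interval 1.04 to 71.6; Fisher's exact test p = 0.131, adjusted p = 0.700), and the rank test gave an adjusted p of 0.177. Conventional samples against the mono-associated mean differed by -1.55 in level with at least 2 values in each group (limma, adjusted p = 0.224; 95% confidence interval -3.43 to 0.34). Il22 was measured in 10 colonised samples and 1 germfree sample, so few germfree samples could show it with Il10. All 9 samples with both were colonised, and 2 samples had Il22 without Il10. These counts were not tested.

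Across the comparisons, Fisher's exact test called 0 of the 5 cytokines and 0% of the assays it could test: 39 for CEC against germfree, 57 for Nissle against germfree, 16 for conventional against germfree, and 74 each for the strain comparison and for conventional against mono-associated samples. At an unadjusted p under 0.05 it gave 1 cytokine, Il10 in conventional against germfree. With 9 samples a side the smallest Fisher p is 4.11e-05, which needs detection throughout 1 group and nowhere in the other. Many tested assays varied through a single sample and could not reach a low p. Without Nissle replicate 6, 19 rather than 57 assays could be tested for Nissle against germfree. Without CEC replicate 6, 20 rather than 39 could be tested for CEC against germfree. In both of these smaller sets Fisher's exact test again called 0 assays, and 0 had an unadjusted p under 0.05. The rank test called 0 cytokines in the comparisons other than conventional against germfree, and 0% of all assays between the strains. In the level test on measured wells, Ifng in CEC against germfree was the 1 of 3 cytokines called (5.45% of 220 assays). For Nissle against germfree 0 of 3 were called (7.27% of 220 assays; 0 at an unadjusted p under 0.05), and for conventional against the mono-associated mean 0 of 4 (20.4% of 221; 0 at an unadjusted p under 0.05). For Nissle against CEC 0 of 4 were called (0.452% of 221 assays), with Il12a at an unadjusted p of 0.00769 (limma). For conventional against germfree 0 of 3 were called (25.5% of 220 assays; 1 at an unadjusted p under 0.05).

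The spread between samples of a group was above the panel median for these assays. The SD within groups was 0.98 log2 units for Ifng, 0.997 for Il12a, 1.22 for Il6, 1.25 for Il10 and 1.5 for Il22. Over the 216 assays that passed the filter the median was 0.53 and the 90th percentile 1.14. Ifng and Il12a thus lay below that percentile, and Il6, Il10 and Il22 above it. The spread of assays of like Ct was not compared. Il12a and Il10, each measured in at least 18 samples, were set against the other assays by the correlation of log2 relative levels across samples. The assays most like Il12a were Mm00442885_m1 (Pearson r = 0.718), Mm00850074_g1 (0.671) and Mm00445235_m1 (0.622), each over 23 samples, with a median of 0.0612 over the 214 assays compared. For Il10 they were Mm00445845_m1 (r = 0.474 over 22 samples), Mm01231746_m1 (0.448 over 24) and Mm00493139_m1 (0.425 over 24), with a median of -0.0194 over 215 assays. These values are a description: the samples share the scaling and include the groups and CEC replicate 7, and the largest of many correlations is high in part by choice.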

How the data were processed

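RNA of 36 ileal mucosa samples was measured on OpenArray cards, per the labels' protocols. Per the file headers, the values the authors deposited are raw Ct without normalization, and the first line describes the matrix as truncated. The sources used here state neither the threshold setting nor the amplification efficiency. A Ct of 40 was treated as undetermined. All columns were matched to samples by title. The members, lists and tests were chosen with earlier results of these data known. The named assays are the 5 cytokines and, for those measured in at least 18 samples, the 3 most correlated assays.

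Ct was scaled to the mean of the 146 assays measured in all samples. Levels were tested with limma 3.58.1 in R 4.3.3 (all 4 groups in 1 fit, threshold 0.05). Fisher's, McNemar's and rank tests used SciPy 1.17.1 in Python 3.11.15. Intervals for a difference in detection are Newcombe's, those for a share Clopper-Pearson's. The limma, Fisher's and rank tests were tested on simulated data. The limma simulation had no missing wells and used the filter of 5 samples per group. It therefore does not cover the filter of 3 used for the cytokines. The number of assays measured per sample, 173 to 217 of the other 219, stands in for depth; intervals cover sampling of samples only. No pair of samples shared an identical measured Ct. Alternatives covered scaling, filters, detection limits, filling, pairing and left-out samples.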

Additional observations from a re-analysis of the deposited data

Results flagged for a closer look

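Of 16 sets of 4 to 9 values screened, 2 held a value far from the rest, where chance flags about 1 in 20. The Il12a level in Nissle replicate 8, at -7.68, lay 0.842 of the group's whole range from the nearest of the other 3 measured Nissle samples. Germfree replicate 32 showed 3 of the 5 cytokines where the other germfree samples showed 1 or 2, a gap of 0.5 of the range in a count that takes whole numbers only.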

How the results depend on the processing

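With the filter of 5 samples per group no cytokine could be tested for level, so the count of called cytokines was 0 and the planned permutation test per assay was not run for them. Called cytokines numbered 1 for CEC against germfree with at least 3 samples (12 of 220 assays called) or 2 values per compared group (12 of 221), and 1 with the filter of 3 together with quantile normalization (Il12a; 28 of 220) or without CEC replicate 7 and Nissle replicate 6 (Ifng; 66 of 220). In these CEC fits 3 or 4 cytokines were tested. Their share called was above the panel's with all samples and near it without CEC replicate 7 and Nissle replicate 6. Called cytokines numbered 1 of 5 for conventional against germfree with undetermined wells filled (Il10; 47 of 222 assays) or in the rank test (Il10; 75 of 222). They numbered 1 of 3 with the filter of 3 and those samples left out (Ifng; 93 of 220). For conventional against germfree the cytokines' share thus stood near or below the panel's. Leaving out each sample at the filter of 3 gave 0 to 2 of the 2 or 3 cytokines tested for CEC against germfree. There 2 to 57 of 219 or 220 assays were called. It gave 0 to 1 of 2 or 3 for conventional against germfree (47 to 73 of 219 or 220 assays called). For Nissle against CEC it gave 0 to 1 of 2 to 4 (1 or 2 of 219 to 221 assays called). The rank difference of Il10 was 5.90 to 7.32 with each of the 18 samples left out and 0 with a Ct above 28 undetermined (adjusted p = 1). Detection calls stayed at 0 of 5 in the alternatives run by Fisher's exact test. The median number of cytokines per sample became 0 in all 4 groups with only a Ct under 28 counted, and with a Ct under 30 it was 1 in germfree, CEC and Nissle and 2 in conventional samples.

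Uncalled detection differences changed sign with the limit. At a Ct under 40 Il12a was detected in 55.6% of CEC and 66.7% of germfree samples. CEC minus germfree was then 33.3 percentage points under 30 and 11.1 under 28. Il10 was detected in 66.7% of Nissle and 77.8% of CEC samples under 40. Nissle minus CEC was then 22.2 under 30 and 11.1 under 28. For Ifng, Il12a and Il10, conventional samples had a higher share than either mono-associated group under 40. Against those groups each of these differences was -5.56 under 28. Replicate numbers did not pair the samples: same-numbered Nissle and CEC samples had correlations from -0.404 to 0.329. With the replicate block limma called 0 cytokines, and the block moved Il12a in Nissle against CEC to -3.12 (limma, adjusted p = 0.268). McNemar's exact test also called 0, but it uses only pairs that differ in detection. Such pairs were few, for example 4 and 2 of 9 for Ifng in conventional against CEC. A call after adjustment was thus hardly possible, and that 0 says nothing about the cytokines.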
